A study of Mus musculus with 4 samples.

Results

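The dioxygenases described here are 36 genes for enzymes that use iron, oxygen and 2-oxoglutarate, and whose activity ascorbate supports. They comprise 3 TET genes, 21 JmjC genes, 9 AlkB genes and 3 genes of enzymes that hydroxylate small molecules. The members were given as a list and matched on gene symbol, and all 36 were found among the 19388 genes with values. Their levels were measured in hippocampus by sequencing poly(A)-selected RNA of C57BL/6 mice, an inbred laboratory strain. There were 4 samples: 2 of mice that received phosphate-buffered saline (PBS), and 2 of mice that received the vitamin C salt sodium L-ascorbate. The series describes 30 days of ascorbic acid treatment of mice that its title calls middle-aged. Strain is the only genetic label, and no allele or transgene is named for either group. It is not said whether the samples of a group are separate animals, so p-values speak only to the spread among these 4 samples.

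Enzymes of this superfamily hold ferrous iron in the active site and split 2-oxoglutarate to succinate while they oxidise a substrate. Ascorbate keeps or returns the iron to the ferrous state, and it stimulates TET enzymes and JmjC demethylases in cultured cells. TET enzymes oxidise methylated cytosine in DNA, most JmjC enzymes remove methyl groups from histone lysines, and AlkB enzymes oxidise alkyl groups on DNA, RNA or protein. Hydroxymethylcytosine, the first TET product, is abundant in neurons, and several JmjC demethylase genes are mutated in intellectual disability.

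No difference between ascorbate and PBS was called for any of the 36 transcripts. In limma-trend, 0 of 36 passed an adjusted p of 0.05, where 0% of 13372 tested genes passed, and the smallest adjusted p among the members was 0.9998. At an unadjusted p under 0.05 the count was again 0 of 36, against 377 of all tested genes, which is 2.82% (2.72% lower and 0.0972% higher with ascorbate). The smallest unadjusted p was 0.142 (limma-trend), for Kdm8. The members had a median log2 difference of -0.022, beside -0.018 for all tested genes. Here and below, a log2 difference is the ascorbate mean minus the PBS mean of log2(FPKM + 1), and FPKM is the number of sequenced fragments scaled by transcript length and library total. Of the members, 20 had a difference below 0 (55.6%, where 54.2% of all tested genes did) and 16 had one above 0 (45.8% of all tested genes). The members' median turned above 0 after rescaling to TPM, median-of-ratios scaling and quantile normalization, as did that of all tested genes.

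The precision of these comparisons was limited. The 95% interval of the log2 difference reached a median of 0.46 to either side. For 33 of the 36 genes the interval lay within a 2-fold difference of FPKM + 1 in both directions. For 19 it lay within a 1.5-fold difference of FPKM + 1. The exceptions to the wider bound were Bbox1, Alkbh7 and Phyh. These bounds do not hold for FPKM itself. At low levels, as for Tet1 and Kdm8, the same interval spans a larger fold in FPKM. An exact 2-sided permutation test of 2 against 2 samples cannot give a p below 0.333.

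The samples differed in tissue markers along with the groups and along with the sample numbers. Summed FPKM over all genes was 391142 and 372683 with PBS and 386956 and 348133 with ascorbate, and read depth is unknown. All 22 choroid plexus markers, of which Ttr was the most abundant, had both ascorbate values under both PBS values, with a summed level of 9070 to 9820 FPKM with PBS and 55.5 to 248 FPKM with ascorbate. Calml4, Otx2, Tmem72 and Wfdc2 were listed at 0 in at least 1 sample. All 15 tested meningeal markers were lower in this way, with sums of 1453 to 1768 FPKM and 233 to 527 FPKM. So were 5 of 7 tested endothelial markers, with sums of 43.2 to 43.8 FPKM and 26.4 to 31.7 FPKM. Markers of hippocampal fields were present in every sample, with 12 of 12 tested, and their sum was 112 and 143 FPKM in the samples numbered 1 and 206 and 230 FPKM in those numbered 2, naming PBS first. The part that these markers play in the values of the dioxygenases was not tested. In bulk tissue, fewer cells of a type and less RNA per cell cannot be told apart.

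Each of the 36 members was at 1 FPKM or more in all 4 samples. Kdm4d (0.20 to 0.64 FPKM) and Uty (0.27 to 0.57 FPKM), JmjC genes outside the list, were below this level. The median over members of the mean level was 9.60 FPKM, beside 11.4 FPKM for all tested genes. Phyh, the peroxisomal enzyme that starts the alpha-oxidation of phytanic acid, had the highest level with a mean of 54.4 FPKM. Fto followed at 35.9 FPKM and Alkbh6 at 25.3 FPKM, and these 3 were the only members above a mean of 20 FPKM. On the same strand, Alkbh6 shares 371 exonic bases (11.88% of its own) with Gm24757, whose reads cannot be told apart there. Tet1 was the lowest, at 1.33 FPKM. In the order of mean levels, 31 of 35 neighbouring pairs overlapped in their ranges over the 4 samples. The 4 pairs that did not overlap were Fto and Alkbh6, Alkbh6 and Kdm7a, Alkbh3 and Tet2, and Kdm8 and Tet1. Together the members made up 0.109% and 0.107% of all FPKM with PBS and 0.111% and 0.114% with ascorbate.

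**Figure D1:**
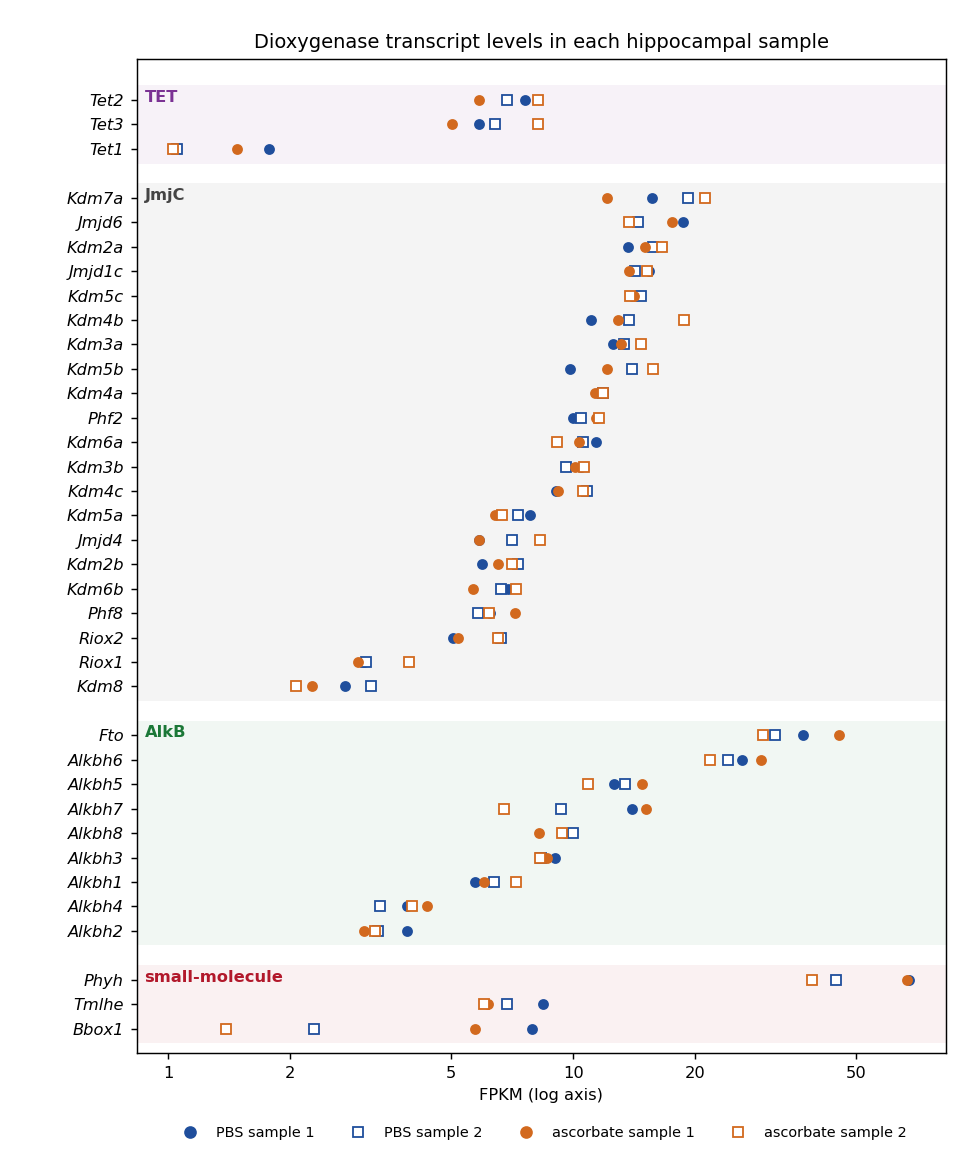
Level of each dioxygenase gene in FPKM on a log axis, grouped by class and ordered by mean level, with 1 symbol per sample (blue PBS, orange ascorbate, filled circles sample 1, open squares sample 2). Phyh and Fto are highest, Tet1 is lowest, and for Bbox1, Alkbh7, Phyh and Fto the circles of both groups lie to the right of the squares.

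The TET genes are the DNA demethylation arm of the family. Tet2, which lacks the CpG-binding domain of its relatives, was 7.60 and 6.87 FPKM in the PBS samples and 5.84 and 8.17 FPKM in the ascorbate samples. Tet3, which has such a domain, was 5.85 and 6.43 FPKM against 5.02 and 8.20 FPKM. For both genes the 2 ascorbate samples held the lowest and the highest value, so the PBS samples lay between them. The ratio of Tet3 to Tet2 ranged from 0.770 to 1.00 over the 4 samples. Tet1 was 1.77 and 1.05 FPKM in the PBS samples and 1.48 and 1.03 FPKM in the ascorbate samples, with overlapping groups and below Tet2 and Tet3 in each sample.

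Log2 differences of the TET genes were -0.087 for Tet1, -0.055 for Tet2 and 0.061 for Tet3. Their 95% intervals ran from -0.79 to 0.61, from -0.60 to 0.49 and from -0.62 to 0.74. For each of the 3 genes the sign of the difference turned when 1 sample was left out. Without PBS sample 1, Tet1 was 0.13 and Tet2 was 0.0091. Without ascorbate sample 1, Tet2 was 0.16, and without ascorbate sample 2, Tet1 was 0.058 and Tet3 was -0.25. Between samples numbered 1 and then between those numbered 2, the log2 difference was -0.16 and -0.014 for Tet1. It was -0.33 and 0.22 for Tet2 and -0.19 and 0.31 for Tet3.

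Among the JmjC genes, the KDM2/7 group removes methyl groups through proteins that also carry PHD or CXXC reader domains. Phf2, a demethylase that acts on repressive histone methylation, was 10.0 and 10.5 FPKM in the PBS samples and 11.4 and 11.6 FPKM in the ascorbate samples. Both ascorbate samples lay above both PBS samples, with a log2 difference of 0.15 (SE 0.13, 95% interval -0.20 to 0.51). Phf2 and Alkbh4 were the only members with both ascorbate samples higher, 2 of 36 (5.56%), where 8.65% of all tested genes showed this. Kdm2a, which binds unmethylated CpG, Kdm2b, its paralogue in a Polycomb complex, and Phf8, an X-linked demethylase, had log2 differences of 0.10, 0.035 and 0.13. Kdm7a had one of -0.11, and its ascorbate samples, at 12.1 and 21.1 FPKM, spanned its PBS samples, at 15.6 and 19.2 FPKM. The median of the group was 0.10. Leaving out a sample gave 0.0045 for PBS sample 1, 0.17 for PBS sample 2, 0.16 for ascorbate sample 1 and 0.036 for ascorbate sample 2, and the 4 scalings gave 0.063 to 0.16.

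The KDM3 genes, Kdm3a, Kdm3b and Jmjd1c, belong to a group whose substrate is repressive methylation of heterochromatin. They lay close together, with all 12 values between 9.62 and 15.4 FPKM. Their log2 differences were 0.096, 0.042 and -0.029. The KDM4 genes, which act on trimethylated lysines, were as close for Kdm4a (11.3 to 11.9 FPKM) and Kdm4c (9.08 to 10.8 FPKM), with log2 differences of -0.014 and -0.0065. Kdm4b was 11.1 and 13.8 FPKM in the PBS samples and 12.9 and 18.8 FPKM in the ascorbate samples, the highest value in ascorbate sample 2. The groups overlapped. The log2 difference of Kdm4b, 0.31 (SE 0.24, 95% interval -0.33 to 0.96), was the highest of the 36 and ranged from 0.056 without ascorbate sample 2 to 0.57 without ascorbate sample 1.

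The KDM5 enzymes remove methylation that marks active promoters, and KDM6 enzymes remove the mark of the Polycomb system. Kdm5a was 7.81 and 7.29 FPKM in the PBS samples and 6.43 and 6.67 FPKM in the ascorbate samples. The ascorbate values were both under the lower PBS value, and the log2 difference was -0.18 (SE 0.14, 95% interval -0.55 to 0.20). The reads of Kdm5a and Ccdc77, which share 251 exonic bases on opposite strands, cannot be told apart there. Kdm5b was 9.83 and 14 FPKM against 12.1 and 15.7 FPKM, with overlapping groups and a log2 difference of 0.22 that was -0.017 without PBS sample 1. Kdm5c, an X-linked gene of intellectual disability, stayed between 13.8 and 14.7 FPKM in all samples, with a log2 difference of -0.034.

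Kdm6a was 11.4 and 10.6 FPKM in the PBS samples and 10.3 and 9.12 FPKM in the ascorbate samples, so the groups did not overlap, by a margin of 10.55 to 10.32 FPKM. Its log2 difference was -0.16 (SE 0.15, 95% interval -0.56 to 0.23). Kdm6b, an inducible paralogue, was 6.89 and 6.64 FPKM against 5.65 and 7.22 FPKM, and the ascorbate samples enclosed the PBS samples. Uty, the Y-linked homologue of Kdm6a, was at 0.27 to 0.57 FPKM and below the mean of 1 FPKM needed for testing.

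The JmjC proteins outside these groups are described mainly as hydroxylases of other proteins. Kdm8 had the smallest unadjusted p of the 36. It was 2.73 and 3.17 FPKM in the PBS samples and 2.27 and 2.07 FPKM in the ascorbate samples. Both ascorbate samples were lower, with a log2 difference of -0.32 (SE 0.18, 95% interval -0.79 to 0.16), which ranged from -0.40 to -0.24 when each sample was left out in turn. Jmjd6, a lysyl hydroxylase of splicing factors, was 18.6 and 14.5 FPKM against 17.5 and 13.8 FPKM. Jmjd4, which hydroxylates the translation release factor, had a log2 difference of 0.10, and the ribosomal oxygenases Riox1 and Riox2 had 0.12 and 0.010. Groups overlapped for these 4 genes. Exons overlap those of Mettl23 for Jmjd6, of Snap47 for Jmjd4 and of Crybg3 for Riox2, the last over 22.4% of the exonic bases of Riox2. In all, 7 of the 35 members found in GENCODE M21 share exonic bases on the opposite strand with a gene of the files, Alkbh1 with Slirp and Kdm2b with Rnf34 among them. Antisense genes outside the files overlap 31.91% of the exonic bases of Riox1 and 24.6% of those of Kdm3b. The strand setting is not stated, so reads from such partners cannot be told apart.

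Levels of the AlkB genes ran from Alkbh2 at the low end to Fto. Fto and Alkbh5 are the demethylases of methyladenosine in messenger RNA. Fto was 37.0 and 31.5 FPKM in the PBS samples and 45.5 and 29.5 FPKM in the ascorbate samples, with the PBS samples inside the ascorbate range. Alkbh5 was 12.6 and 13.4 FPKM against 14.8 and 10.9 FPKM, again inside it. Fto exceeded Alkbh5 by 2.34-fold to 3.08-fold in the 4 samples. Log2 differences were 0.10 for Fto (SE 0.26) and -0.036 for Alkbh5 (SE 0.19), and with each sample left out they ranged from -0.20 to 0.40 and from -0.24 to 0.17.

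Alkbh4, a demethylase reported to act on actin, was 3.89 and 3.34 FPKM in the PBS samples and 4.36 and 4.01 FPKM in the ascorbate samples. Both ascorbate samples were higher, with a log2 difference of 0.17 (SE 0.16). Alkbh2, which repairs alkylated DNA, was 3.90 and 3.30 FPKM against 3.04 and 3.25 FPKM. Both ascorbate samples were lower, by a margin of 3.30 to 3.25 FPKM. Exons of Usp30 overlap 29.5% of the exonic bases of Alkbh2, so its level is uncertain. Alkbh8, a modifier of wobble uridine in transfer RNA, was 9.54 and 10.0 FPKM against 8.23 and 9.40 FPKM, with both ascorbate samples lower and a log2 difference of -0.14 (SE 0.15).

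The other AlkB genes had overlapping groups. Alkbh1, which acts on transfer RNA, had a log2 difference of 0.11. Alkbh3, a repair enzyme related to Alkbh2, had one of -0.033, and Alkbh6 one of 7.7e-04. Alkbh7, a mitochondrial protein linked to programmed necrosis, was 14.01 and 9.33 FPKM in the PBS samples and 15.1 and 6.74 FPKM in the ascorbate samples, with the PBS samples inside the ascorbate range. Its log2 difference was -0.16 (SE 0.42), and it ran from -0.69 with ascorbate sample 1 left out to 0.37 with ascorbate sample 2 left out.

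The 3 small-molecule enzymes had log2 differences below 0. Tmlhe, which starts carnitine synthesis, was 8.43 and 6.86 FPKM in the PBS samples and 6.17 and 6.03 FPKM in the ascorbate samples. Both ascorbate samples were lower, with a log2 difference of -0.28 (SE 0.16, 95% interval -0.72 to 0.16). Bbox1, which makes carnitine in the last step of that pathway, was 7.92 and 2.29 FPKM against 5.71 and 1.39 FPKM. Its groups overlapped, and its log2 difference of -0.44 (SE 0.72) ranged from -1.18 without ascorbate sample 1 to 0.31 without ascorbate sample 2. Phyh was 67.5 and 44.5 FPKM against 66.6 and 39.0 FPKM, with a log2 difference of -0.10 (SE 0.35), or 0.28 without ascorbate sample 2. Between samples numbered 1 and then between those numbered 2, the log2 difference was -0.41 and -0.46 for Bbox1. It was -0.40 and -0.16 for Tmlhe and -0.018 and -0.19 for Phyh.

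Counted over all members, the ascorbate values were both under the lower PBS value for 6 genes, Kdm8, Tmlhe, Kdm5a, Kdm6a, Alkbh8 and Alkbh2. This is 16.7% of the 36, where 14.4% of all tested genes showed it, so the share is near the background. For 12 of the 36 members the sign of the log2 difference held with each sample left out in turn, as for 35.4% of all tested genes.

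**Figure D2:**
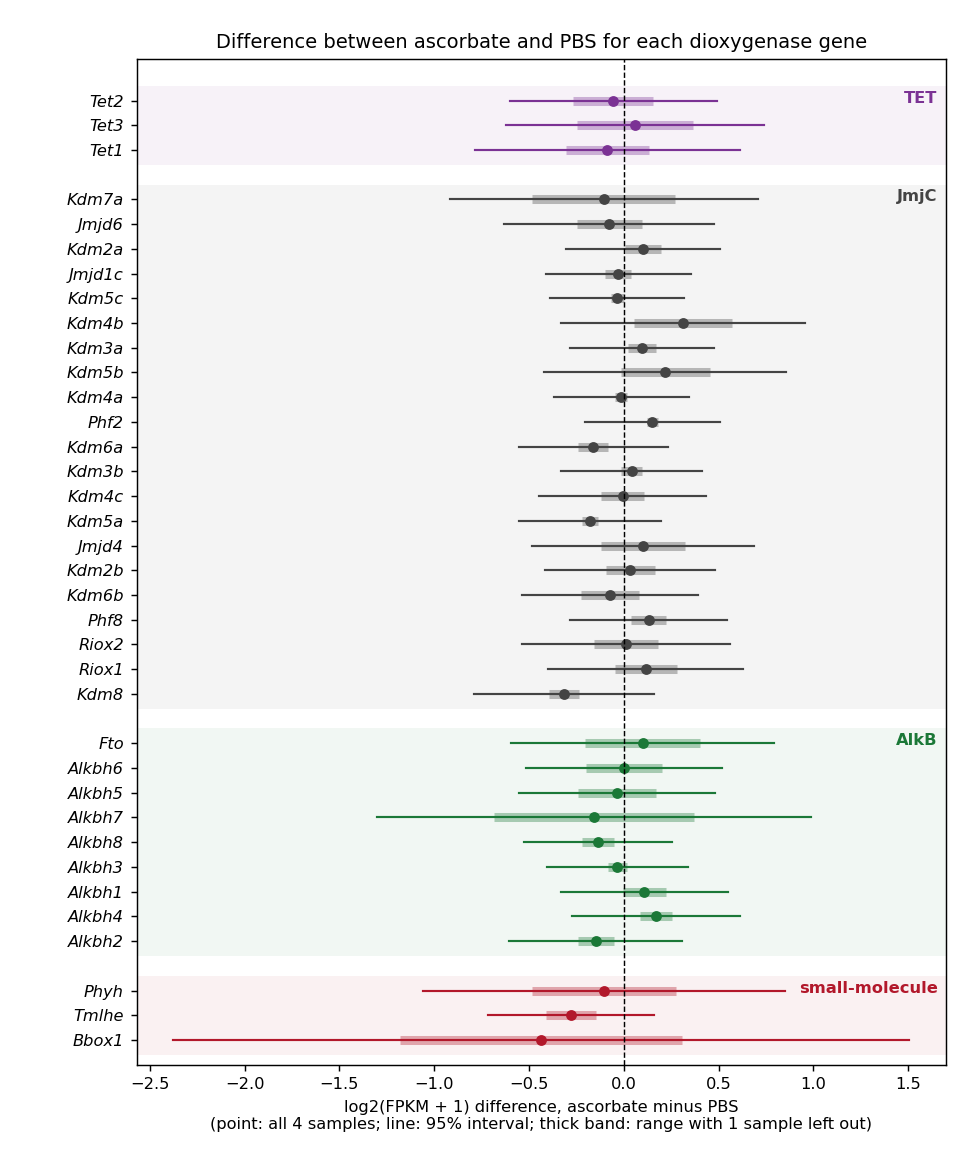
Difference between ascorbate and PBS for each gene on the log2(FPKM + 1) scale, with points for the fit on 4 samples, lines for 95% intervals and thick bands for the range when 1 sample is left out. All 36 intervals cross 0, and the widest belong to Bbox1, Alkbh7 and Phyh.

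The 3 small-molecule genes, with log2 differences of -0.44 to -0.10, lay below all TET genes (-0.087 to 0.061) and overlapped the AlkB genes (-0.16 to 0.17) and the JmjC genes (-0.32 to 0.31). The median log2 difference was -0.055 for the 3 TET genes, 0.010 for the 21 JmjC genes, -0.033 for the 9 AlkB genes and -0.28 for the 3 small-molecule genes. The AlkB median was above 0 after rescaling to TPM, median-of-ratios scaling or quantile normalization (0.0016 to 0.019), so its direction rests on the scaling. With quantile normalization the TET median was 0.11, and with choroid plexus and meningeal markers left out and the rest rescaled the JmjC median was -0.024. The small-molecule median was below 0 under these 4 scalings, but 0.19 without PBS sample 1 and 0.28 without ascorbate sample 2. Leaving out 1 sample also leaves the sample numbers unequally represented in the groups. Between samples numbered 1 and then between those numbered 2, the median difference was -0.40 and -0.19 for small-molecule genes. It was -0.19 and 0.22 for TET, 0 and 0.080 for JmjC and 0.10 and -0.082 for AlkB genes. Within the JmjC class, medians over all 4 samples ran from -0.12 for the KDM6 pair to 0.10 for the KDM2/7 genes. The KDM4 median, -0.0065, was above 0 under TPM, median-of-ratios and quantile scaling, the KDM5 median, -0.034, under the first and second of these, and the median of the 5 JmjC genes outside these groups, 0.010, was -0.024 with the markers left out. Genes of 1 subfamily pointed both ways in every subfamily but KDM6 and the small-molecule enzymes. The mean log2(FPKM + 1) level of the JmjC genes minus that of the AlkB genes, a quantity that a common scale factor hardly moves, was -0.21 and -0.0076 with PBS and -0.27 and 0.11 with ascorbate. Here too the ascorbate samples enclosed the PBS samples.

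**Figure D3:**
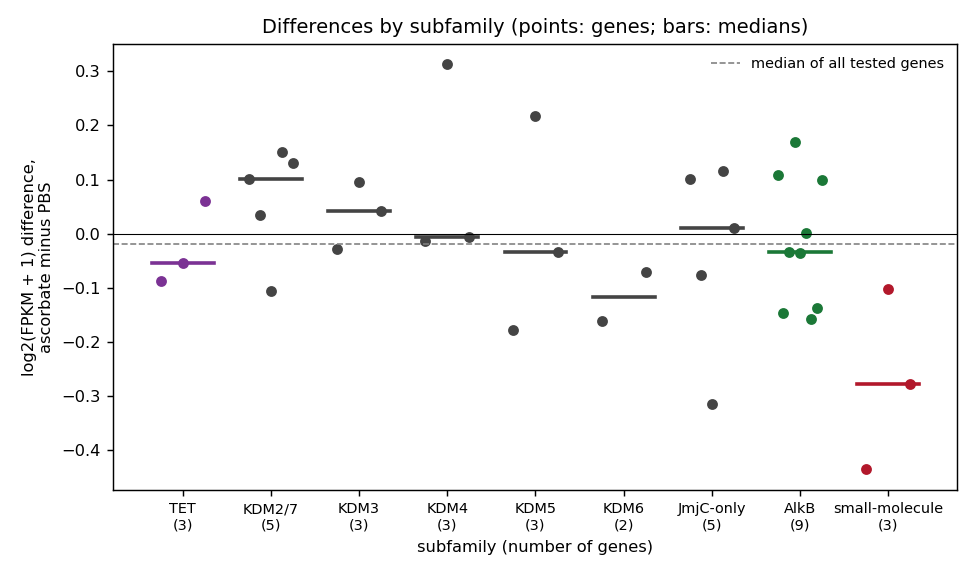
Log2(FPKM + 1) difference, ascorbate minus PBS, by subfamily, with a point for each gene and a bar for the median. Points lie on both sides of 0 in 7 of the 9 subfamilies, and the dashed line marks the median of all tested genes at -0.018.

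Differences between samples of the same treatment were larger than those between treatments for most members. The labels number the samples 1 and 2 in each group and give the numbers no meaning. For 27 of 36 members (75.0%), sample 2 differed from sample 1 in the same direction with PBS and with ascorbate, as for 75.1% of all tested genes. For 25 members (69.4%) the mean difference between the numbers exceeded that between the groups, as for 69.7% of all tested genes. Across the 36 genes, the difference between samples 2 and 1 with PBS and that with ascorbate had a Pearson r of 0.83 and a Spearman rho of 0.69. Across all tested genes the values were 0.77 and 0.71. These correlations are across genes that share the 4 libraries, so the genes are not independent replicates.

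Bbox1 had the largest such difference, with 7.92 and 5.71 FPKM in the samples numbered 1 and 2.29 and 1.39 FPKM in those numbered 2, naming PBS first. In log2(FPKM + 1), sample 2 was -1.44 from sample 1 with PBS and -1.49 with ascorbate. Alkbh7 came next with -0.54 and -1.06, followed by Phyh with -0.59 and -0.76 and Fto with -0.23 and -0.61. The opposite order held for Kdm7a, with 0.28 and 0.75, for Kdm5b, with 0.47 and 0.35, for Kdm4b, with 0.29 and 0.51, and for Tet3, with 0.12 and 0.61. Of all 36 members, 12 were higher in sample 1 in both groups and 15 were higher in sample 2. Among all tested genes, 47.4% were higher in sample 1 and 27.7% in sample 2. The larger share was thus sample 2 for the members and sample 1 for all tested genes. By class, 12 of 21 JmjC genes were higher in sample 2 in both groups and 3 were higher in sample 1, while 5 of 9 AlkB genes were higher in sample 1 and 2 in sample 2. All 3 small-molecule genes were higher in sample 1. These counts were not tested.

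Some lists of tissue markers followed the same numbers. All 12 markers of thalamus, a region next to the hippocampus, were higher in sample 1 of both groups, with sums of 532 and 613 FPKM in the samples numbered 1 and 220 and 208 FPKM in those numbered 2. All 8 oligodendrocyte markers were higher in sample 1 as well, with sums of 3708 and 3598 FPKM against 1965 and 1592 FPKM, and so were all 11 tested ependymal markers (125 and 119 FPKM against 66.4 and 12.4 FPKM). The 4 tested erythrocyte markers were higher in sample 1 too. Of the 12 hippocampal markers, 11 were higher in sample 2. Other lists were mixed. In both groups, 3 of 8 neuronal, 5 of 8 astrocyte and 5 of 8 microglial markers were higher in sample 1, and 5, 2 and 3 in sample 2. For 7 endothelial markers the counts were 0 and 3, for 22 choroid plexus markers 10 and 1, and for 15 meningeal markers 8 and 2. Over all tested genes the shares were 47.4% and 27.7%. What these markers contribute to the differences of Bbox1, Phyh, Alkbh7 or Fto was not tested.

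**Figure D4:**
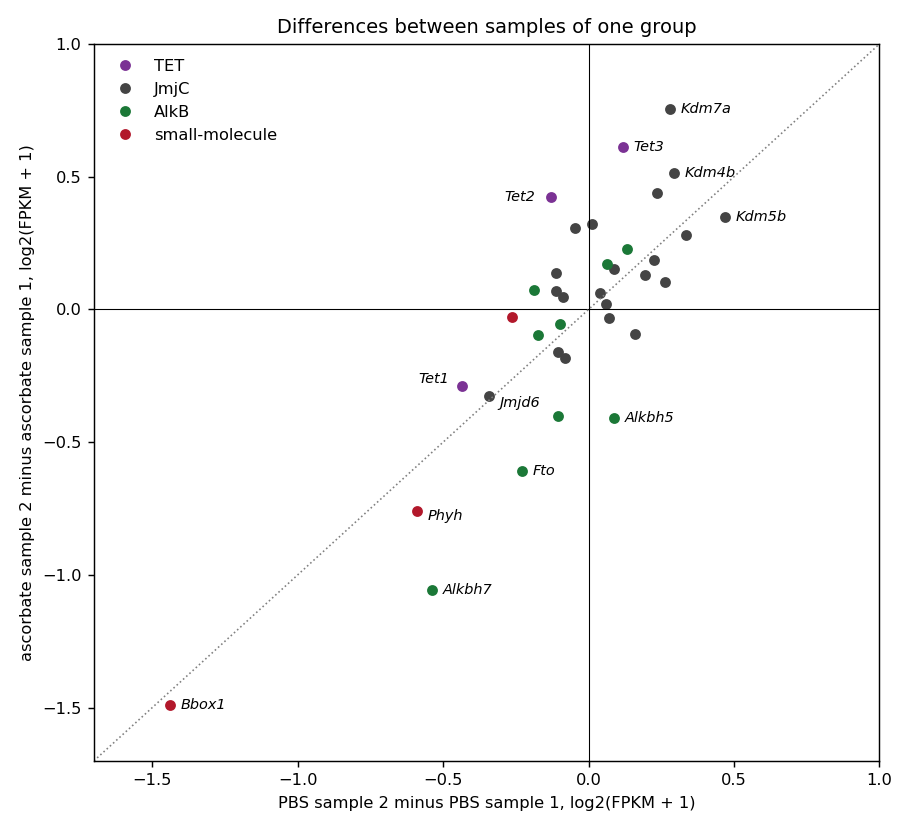
Sample 2 minus sample 1 in log2(FPKM + 1) for each gene, with the PBS samples on the horizontal and the ascorbate samples on the vertical axis, coloured by class. Bbox1 lies at -1.44 and -1.49, Alkbh7, Phyh and Fto lie on the same side of both axes, and Kdm7a, Kdm4b, Kdm5b and Tet3 lie on the opposite side.

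Promoter sequence is shown for the genes at both ends of this order, to set the members that were high in sample 1 beside those that were high in sample 2. Of the 4 genes at each end, 7 have a single RefSeq promoter window on GRCm38.p6. Each sequence is the 250 bases before the start used for that window, which can differ from the outer start of the gene. It is given 5′ to 3′ on the strand of the gene, with CpG dinucleotides in capitals. The windows of Bbox1 and Tet3 lie wholly inside the span that RefSeq lists for the gene, and that of Fto lies partly inside it. For Bbox1 and Tet3 the sequence is therefore not the region before the outer start of the gene. The first 4 belong to genes higher in sample 1 and the last 3 to genes higher in sample 2.
Bbox1 (chr2:110305726-110305975, minus strand): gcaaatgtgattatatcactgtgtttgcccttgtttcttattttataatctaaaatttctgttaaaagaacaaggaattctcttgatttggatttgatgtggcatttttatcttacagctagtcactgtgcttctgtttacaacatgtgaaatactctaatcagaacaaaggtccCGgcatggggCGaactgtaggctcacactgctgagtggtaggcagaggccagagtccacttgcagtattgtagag
Alkbh7 (chr17:56997089-56997338, plus strand): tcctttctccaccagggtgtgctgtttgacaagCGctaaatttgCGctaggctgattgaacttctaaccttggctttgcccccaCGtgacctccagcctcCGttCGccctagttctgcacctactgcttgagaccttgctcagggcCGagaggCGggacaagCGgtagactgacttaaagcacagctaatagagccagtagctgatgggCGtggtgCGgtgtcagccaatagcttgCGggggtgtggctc
Phyh (chr2:4918746-4918995, plus strand): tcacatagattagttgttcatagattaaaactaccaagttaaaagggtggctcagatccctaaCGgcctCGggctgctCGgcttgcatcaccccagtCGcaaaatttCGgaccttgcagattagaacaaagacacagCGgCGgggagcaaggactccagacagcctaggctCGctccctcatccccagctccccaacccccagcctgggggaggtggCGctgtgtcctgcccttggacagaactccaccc
Fto (chr8:91313275-91313524, plus strand): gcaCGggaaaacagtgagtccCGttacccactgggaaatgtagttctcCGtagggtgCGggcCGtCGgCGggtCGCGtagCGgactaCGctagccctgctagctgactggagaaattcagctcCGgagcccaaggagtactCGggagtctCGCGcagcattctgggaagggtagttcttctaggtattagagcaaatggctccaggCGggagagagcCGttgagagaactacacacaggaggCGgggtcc
Tet3 (chr6:83441679-83441928, minus strand): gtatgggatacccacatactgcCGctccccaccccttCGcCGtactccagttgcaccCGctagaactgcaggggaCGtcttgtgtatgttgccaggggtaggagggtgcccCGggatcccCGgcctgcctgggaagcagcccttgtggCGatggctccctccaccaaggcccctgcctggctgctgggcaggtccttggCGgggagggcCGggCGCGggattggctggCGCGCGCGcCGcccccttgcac
Kdm5b (chr1:134559928-134560177, plus strand): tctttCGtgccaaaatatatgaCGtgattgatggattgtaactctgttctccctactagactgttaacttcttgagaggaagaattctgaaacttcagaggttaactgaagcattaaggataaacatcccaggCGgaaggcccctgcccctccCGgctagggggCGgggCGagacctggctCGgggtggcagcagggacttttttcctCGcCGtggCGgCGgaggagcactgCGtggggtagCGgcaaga
Kdm7a (chr6:39206774-39207023, minus strand): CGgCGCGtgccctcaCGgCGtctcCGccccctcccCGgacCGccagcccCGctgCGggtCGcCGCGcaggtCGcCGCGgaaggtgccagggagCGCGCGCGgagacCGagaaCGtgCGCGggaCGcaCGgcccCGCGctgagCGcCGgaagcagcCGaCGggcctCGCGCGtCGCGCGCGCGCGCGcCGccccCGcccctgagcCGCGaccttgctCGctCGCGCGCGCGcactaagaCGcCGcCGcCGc

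CpG sites, the substrate context of TET enzymes and the binding site of CXXC domains, numbered 2 in the Bbox1 window, 11 in Alkbh7, 9 in Phyh and 18 in Fto. There were 17 in Tet3, 13 in Kdm5b and 56 in Kdm7a, where the median of all 32851 windows is 6. The dinucleotide CG reads the same on both strands, and 92.1% of all windows of this length hold at least 1. Over the 39 windows listed for 30 of the 36 genes, the median was 15 CpG sites, as in the 13769 windows of all tested genes. At least 10 sites were found in 31 of the 39 (79.5%), against 69.2% of the windows of tested genes. The counts describe these windows and say nothing about methylation, which was not measured.

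Genes that write, read or supply the same reactions were examined in 8 lists. Of 123 such genes, 117 were tested. In limma-trend 0 passed the adjusted threshold, and 1 had an unadjusted p under 0.05, where 2.82% of all tested genes did. The median log2 difference was 0.037 for 7 DNA methyltransferases and readers of methylated DNA. It was 0.029 for 12 base excision genes and other partners of TET, and 0.0085 for 28 histone lysine methyltransferases. It was -0.070 for 8 flavin-dependent demethylases and partners, 0.036 for 14 writers and readers of methyladenosine, -0.053 for 25 genes of 2-oxoglutarate supply and -0.027 for 7 other JmjC genes. With choroid plexus and meningeal markers left out and the rest rescaled, medians were -0.0011 for the DNA methylation list and -0.0034 for TET partners. The medians of the histone methyltransferase and methyladenosine lists were -0.027 and -0.0025. After rescaling to TPM, those of 2-oxoglutarate supply, the carnitine list and other JmjC genes were 0.0029, 0.026 and 0.018, so none of these 7 directions held under every scaling.

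The 1 gene was Cpt1a, the carnitine palmitoyltransferase that commits fatty acids to mitochondrial oxidation, in the list of 16 carnitine and phytanic acid partners (median -0.027). Cpt1a was 12.2 and 12.1 FPKM in the PBS samples and 9.41 and 6.15 FPKM in the ascorbate samples. Both ascorbate samples were lower, with a log2 difference of -0.61 (SE 0.23, limma-trend unadjusted p = 0.0498, adjusted p = 0.9998), which was -0.34 without ascorbate sample 2. The carnitine transporter Slc22a5 was 11.1 and 9.41 FPKM against 7.98 and 7.26 FPKM, also with both ascorbate samples lower (log2 difference -0.38, SE 0.16). The sums of choroid plexus and meningeal markers were also lower with ascorbate, and their part in these values was not tested.

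For the genes with the smallest p in the other lists, every 95% interval included 0. Mbd1, which binds methylated DNA, had a log2 difference of 0.099, and the repair enzymes Smug1 and Polb 0.16 and -0.099. The methyltransferases Ehmt2 and Kmt5c had 0.14 and -0.16, the demethylase Kdm1a and its partner Hdac1 0.16 and -0.17, and the methyladenosine writer subunits Rbm15b and Cbll1 0.16 and 0.12. For 2-oxoglutarate, the transaminase Gpt2 was 21.5 and 22.1 FPKM in the PBS samples and 25.0 and 27.8 FPKM in the ascorbate samples (log2 difference 0.26, SE 0.14), and Dld, a subunit of the 2-oxoglutarate dehydrogenase complex, was 90.0 and 86.8 FPKM against 76.8 and 75.4 FPKM (-0.21, SE 0.15). Jmjd8 and Tyw5 from the other JmjC genes had log2 differences of -0.30 and -0.12. Both ascorbate samples were lower for Dld, Polb, Hdac1 and Jmjd8, and higher for Gpt2, Mbd1, Rbm15b and Cbll1. Groups overlapped for the other genes named in this paragraph. These genes were picked by p, and over all tested genes 14.4% were lower in this way and 8.65% higher.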

How the data were processed

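Total RNA was extracted with Trizol and polyadenylated RNA was captured on oligo(dT) beads, per the labels' protocols. The authors deposited FPKM for each sample, given to 2 decimals, per the file headers. HISAT2, Bowtie2, RSEM and DESeq2 with GRCm38 are named without version or order, per the submitters' processing notes. Annotation release and strand setting are not given in the sources used here. FPKM depends on the library total, so abundant transcripts lower all others.

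The 4 files list 22173 genes, of which 2785 have no value in any sample. The 13372 genes averaging 1 FPKM or more were compared on log2(FPKM + 1) by limma-trend (R 4.3.3 with limma 3.58.1), treatment being the only term. This leaves 2 residual degrees of freedom, to which the moderation adds 2.33. The Benjamini-Hochberg adjustment ran over all tested genes, and the threshold was 0.05. The fit was tested on simulated data. The members and gene lists were chosen with earlier results of these data known. All 36 members are named. From each partner list the 2 genes with the smallest p are named, except 1 gene that is not reported here. Exonic overlaps come from GENCODE M21, where 35 members were found, and transcripts were compared with BLAST+ 2.17.0 at 95% identity over 200 bases. Alternatives were pseudocounts, filters, scalings, limma options, a block for the replicate number, and leaving out each sample.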

Additional observations from a re-analysis of the deposited data

How the results depend on the processing

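No dioxygenase gene passed the adjusted threshold under any of the 15 alternatives. For all genes the count of 0 became 1 with quantile normalization and 485 with the replicate block. The unadjusted count of 377 became 703 without a filter, 191 with a mean of at least 5 FPKM and 1701 with the replicate block, and ranged from 182 (without PBS sample 1) to 616 (without ascorbate sample 1). With the replicate block, 2 members had an unadjusted p under 0.05, Bbox1 (adjusted p = 0.204 in limma) and Kdm4b (0.277), and Cpt1a passed (0.0252). Only 1 residual degree of freedom remains there. The labels give the numbers no meaning, although the deviations of same-numbered samples correlated at 0.770 across tested genes.

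The members' median of -0.022 was 0.033 after rescaling to TPM, 0.015 with median-of-ratios scaling, 0.012 with quantile normalization and -0.059 with choroid plexus and meningeal markers left out and the rest rescaled. The median of all tested genes was 0.033, 0.015, 0.030 and -0.054 under these settings. The JmjC median of 0.010 was 0.065 with TPM and 0.076 with quantile normalization, and the AlkB median of -0.033 was 0.019, 0.0016, 0.0042 and -0.070 under the 4 scalings in the order above. With each sample left out, medians ranged from -0.011 to 0.039 for all members, from -0.25 to 0.16 for TET, from -0.045 to 0.090 for JmjC, from -0.11 to 0.17 for AlkB and from -0.48 to 0.28 for small-molecule genes. At most 6 members changed sign under a scaling, and 8 to 12 did with a sample left out. The causes were not tested. Depth is unknown, so counting error cannot be given.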

Other observations

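Another JmjC gene, Hr, a histone demethylase and nuclear receptor corepressor that is no member of the 36, was 7.74 and 2.24 FPKM in the PBS samples and 6.78 and 2.24 FPKM in the ascorbate samples, with sample 1 above sample 2 in both groups, as for Bbox1. It was chosen after its values were seen.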
